A study of Mus musculus with 6 samples.

Results

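The interleukin 12 family was followed through its 5 subunit genes, Il12a, Il12b, Il23a, Il27 and Ebi3, out of 27378 gene IDs in a count table of mouse brain immune cells. They were chosen by name, and because Il12b had been seen to differ in sign between microglia and macrophages, so Il12b is described with no test. CD45+ cells, the haematopoietic fraction of the tissue, had been sorted and profiled as single cells by 10x 3' v3 chemistry in 6 libraries. The groups were gliomas deleted for Trp53 and Rbpj (Rbpj-deleted tumours, 2 libraries, a pool of 9 tumours), gliomas deleted for Trp53 with Rbpj intact (control tumours, 2 libraries, 15 tumours) and healthy brains wild type for both genes (2 libraries, 9 brains). Both tumour groups thus shared the loss of Trp53 and the GFP reporter Rosa-CAG::GFP, by which Cre-recombined early gliomas were found and dissected. The sources used here name neither the Cre driver, strain, age and sex nor the mice behind each library. A pool count is given for each group, while the extraction protocol speaks of 1 mouse per well, so the p-values below measure the spread between libraries, which may be technical.

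The 4 cytokines of the family are heterodimers that share subunits. Il12a (p35) and Il12b (p40) make IL-12, Il23a (p19) and Il12b make IL-23, Il27 (p28) and Ebi3 make IL-27, and Il12a with Ebi3 makes IL-35. IL-12 and IL-23 are classical products of activated dendritic cells and macrophages and act on T and NK cells, IL-12 through STAT4 towards interferon-gamma and IL-23 through STAT3. IL-27, made by the same myeloid cells, signals through a receptor that holds gp130, and IL-35 is known from regulatory T and B cells.

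Start-site windows are shown for Il12b, the subunit on which the comparison of microglia and macrophages turned, and for Ebi3, the subunit shared by IL-27 and IL-35. They run from 250 bases before to 50 after the RefSeq start, 5' to 3' on the plus strand, at chr11:44399813-44400112 for Il12b and chr17:55952373-55952672 for Ebi3 (GRCm38.p6). Capitals mark a TATA match (TATANAA, first base at position -30) in Il12b, and NF-kB matches (given by name, first bases at -44 and 14) in Ebi3, the first of which also matched on the opposite strand.
Il12b: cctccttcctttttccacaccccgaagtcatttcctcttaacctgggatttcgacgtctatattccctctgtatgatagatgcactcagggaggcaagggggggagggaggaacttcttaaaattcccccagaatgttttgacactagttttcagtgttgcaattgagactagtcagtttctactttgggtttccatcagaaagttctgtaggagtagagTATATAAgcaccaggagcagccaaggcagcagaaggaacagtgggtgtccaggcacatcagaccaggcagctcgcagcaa
Ebi3: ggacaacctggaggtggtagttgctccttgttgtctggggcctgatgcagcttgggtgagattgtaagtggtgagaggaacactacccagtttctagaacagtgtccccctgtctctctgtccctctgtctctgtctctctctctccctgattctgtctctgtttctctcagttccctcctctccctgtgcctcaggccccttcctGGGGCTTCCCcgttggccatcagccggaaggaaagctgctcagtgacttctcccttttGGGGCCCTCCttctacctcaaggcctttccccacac
The motifs searched on both strands were NF-kB (in 8.46% of 32851 RefSeq windows of this length), AP-1 (TGANTCA, 7.81%), C/EBP (TTGCNNAA, 10.8%), the interferon-stimulated response element (given by name, 3.44%), PU.1 (GAGGAAG, 13.6%), Rbpj (TGGGAA, 25.6%) and TATA (11.3%). The 2 windows of Il12a each held 1 match, to the Rbpj letters. Each match is a description of letters only.

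In GENCODE vM21 on GRCm38, Il12b lies on chromosome 11 at 44400063-44414033 (plus strand), Il12a on chromosome 3 at 68690644-68698547 (plus), Il23a on chromosome 10 at 128296139-128298752 (minus), Il27 on chromosome 7 at 126589010-126594941 (minus) and Ebi3 on chromosome 17 at 55952640-55957022 (plus). Il27 overlaps Apobr by 103 bases on the opposite strand, and 7.37% of its 31-base words also occur in other genes when either strand is allowed. Ebi3 overlaps the antisense gene Gm16712 by 2252 bases, with 19.0% of such words shared, and the sources used here do not state the strand setting of the counting. Reads of these overlapping partners could not be told apart, although Gm16712 was listed at 0 in all 18 library sums of microglia, macrophages and dendritic cells but 1 (1 UMI, control replicate 2 macrophages). The other 3 members shared at most 0.803%.

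After filtering, 13999 cells remained. The Rbpj-deleted libraries held 2185 and 1739 cells, the control tumour libraries 949 and 481, and the healthy libraries 6258 and 2387, with median depths of 5199 to 9691 unique molecular identifiers (UMIs, counted molecules) per cell. Clusters were built without the 5 members and named from fixed markers, which gave 8202 microglia-like, 2929 monocyte/macrophage-like and 401 dendritic-like cells, called microglia, macrophages and dendritic cells below. The 10 microglial markers (P2ry12, Tmem119 and others) summed to 17280 to 31880 CPM (UMIs scaled to a common total of the class in that library) in microglia and to 1739 to 15010 CPM in macrophages. Monocyte and macrophage markers summed to 317 to 4171 CPM in microglia and 8256 to 32000 CPM in macrophages. Each class was made of different clusters in the 3 groups: 67.3% and 7.65% of microglia in the Rbpj-deleted libraries, 44.6% and 50.8% in the control libraries and none and 0.246% in healthy brain belonged to a cluster led by Egr3, Csf1 and Tnf. In tumours most macrophages belonged to clusters led by Ly6i, Ms4a4c and Ass1 or by Ccl8, Gbp2b and Pla2g2d. In healthy brain 79.6% and 72.5% of macrophages belonged to a cluster led by Lyve1, Ccn1 and Cd163. The Ly6i cluster held 0.408% and 1.99% of healthy macrophages, and the Ccl8 cluster held 0 healthy cells. The part of this make-up in the differences of whole classes below was not tested. Rbpj itself, deleted in tumour cells and not stated to be deleted in the sorted ones, had 59.0 and 44.5 CPM over all cells of the Rbpj-deleted libraries, 85.5 and 92.9 CPM in control tumour and 32.6 and 57.9 CPM in healthy brain. Trp53 was at 77.8 to 97.3 CPM in all 6. Ptprc, which encodes CD45, was detected in 63.8% to 90.5% of cells of each library.

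Il12b, the p40 subunit shared by IL-12 and IL-23, came from few cells. In all, 200 of 13999 cells (1.43%) held its 3233 UMIs, the 10 highest cells held 50.5% of them, and 1 cell held 467. Dendritic cells carried 69.1% of the UMIs, macrophages 23.0% and microglia 6.65%. A UMI was found in 22.7% of dendritic cells, 2.49% of macrophages and 0.305% of microglia at median depths of 11886, 8245 and 5691 UMIs. For comparison, lymphocytes, which should lack the gene, showed it in 1 of 484 T-like cells (0.207%, median depth 6603), 0 of 276 NK-like cells, which allows up to 1.09%, and 0 of 186 B-like cells, which allows up to 1.61%. The microglial share in healthy brain, 1 of 4552 and 1 of 1624 cells, lay below the T-like share.

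Within dendritic cells, 2200 UMIs fell in 1 cluster of 140 cells, 56.4% of which had a UMI, led by Ccl22, Il12b, Cacnb3 and Ccr7. Ccr7 and Ccl22 are markers of mature, migrating dendritic cells. There Il12b stood at 513 and 1869 CPM in the Rbpj-deleted libraries (68 and 34 cells), 1951 and 111 CPM in the control tumour libraries (27 and 5 cells), and no UMI was found in the 6 such cells of healthy brain. Over all dendritic cells it stood at 327 and 916 CPM in Rbpj-deleted tumours, 622 and 30.5 CPM in control tumours, and 2.12 and 0 CPM in healthy brain. The 2 tumour groups overlapped, and both lay above healthy brain, where 43.3% and 45.8% of 7629 genes were apart in either direction. The low control library had 14 dendritic cells, 2 of them with a UMI.

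In microglia, Il12b stood at 15.9 and 15.5 CPM in the Rbpj-deleted libraries (149 and 53 UMIs), 1.19 and 3.61 CPM in control tumour (3 and 7 UMIs) and 0.0696 and 0.0941 CPM in healthy brain (2 and 1 UMIs). Both Rbpj-deleted libraries were above both control ones, and 44.9% of the 11109 genes tested in that class were likewise apart, in either direction. In macrophages the order was the other way: 31.7 and 13.7 CPM in Rbpj-deleted tumours (320 and 99 UMIs), 37.4 and 129.9 CPM in control tumours (122 and 203 UMIs) and 0 and 0.396 CPM in healthy brain (0 and 1 UMI). Again the tumour groups did not overlap, as for 30.8% of the 11140 genes of that class. Pooled over libraries and set against the 1 to 3 healthy UMIs of a class, Rbpj-deleted and control tumours were 208 (95% counting interval 70.1 to 1016) and 29.4 (7.57 to 166) times higher in microglia, 279 (49.8 to 11030) and 776 (138 to 30750) times in macrophages, and 341 (94.1 to 2816) and 348 (96.0 to 2878) times in dendritic cells. These intervals take each UMI as independent and leave out the spread between cells and between libraries. The log2 ratio of mean CPM, Rbpj-deleted over control, was 2.71 in microglia and -1.88 in macrophages. These values chose the gene and carry no test. Leaving out 1 library at a time gave 2.12 to 3.73 in microglia and -2.61 to -0.721 in macrophages. In dendritic cells the log2 ratio was 0.93, but -0.00139 without control replicate 2 and 4.35 without control replicate 1.

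**Figure D1:**
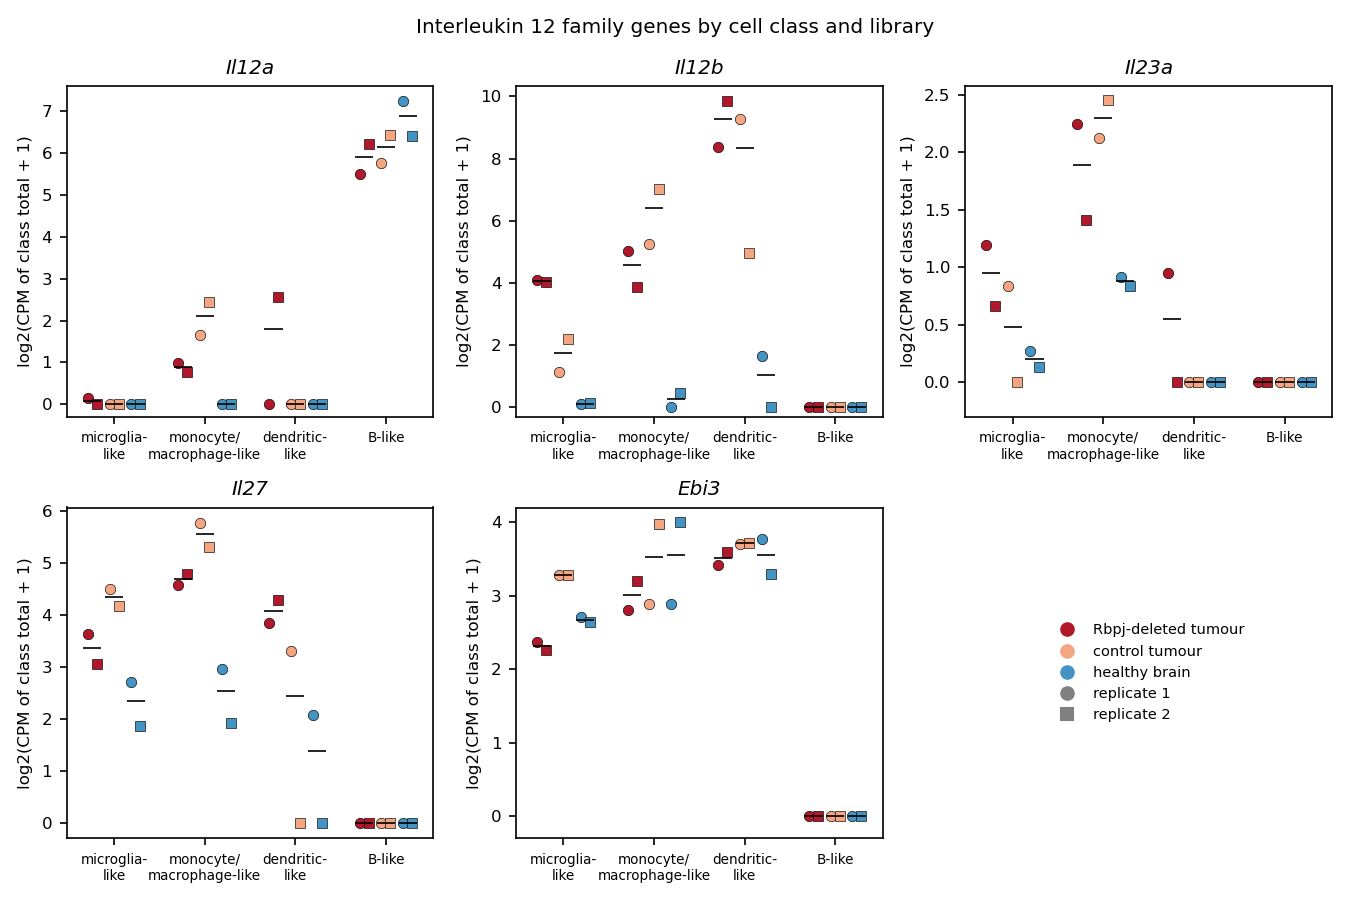
Levels of the 5 genes on the log2(CPM + 1) scale in 4 cell classes, 1 point per library (circle replicate 1, square replicate 2, line the mean CPM of a group on this scale). Il12b points of Rbpj-deleted microglia lie above the control points and those of Rbpj-deleted macrophages below them; Il12a is highest in B-like cells.

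The contrast in sign rested on a handful of cells. In microglia the Rbpj-deleted libraries had 15 of 1086 and 4 of 510 cells with a UMI, and the control libraries 2 of 231 and 2 of 199. The 2 highest cells held 72.5% and 90.6% of the Rbpj-deleted UMIs. In macrophages the Rbpj-deleted libraries had 54 of 617 and 10 of 740 cells with a UMI and the control libraries 4 of 212 and 4 of 78. The 2 highest cells held 29.7% and 59.6% of the UMIs in Rbpj-deleted macrophages, against 92.6% and 96.1% in control macrophages (88 and 25 UMIs in the first control library, 98 and 97 in the second).

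Counted as a share of cells, the groups overlapped in both classes. Microglia with a UMI made up 1.38% and 0.784% in Rbpj-deleted tumours and 0.866% and 1.01% in control tumours. Macrophages with a UMI made up 8.75% and 1.35% in Rbpj-deleted tumours and 1.89% and 5.13% in control tumours. With each cell thinned to 2000 UMIs the shares became 0.613% and 0.569% against 0.223% and 0.307% in microglia, and 2.92% and 0.618% against 1.38% and 3.87% in macrophages, Rbpj-deleted before control; the cells deep enough numbered 930 and 465 against 216 and 164 in microglia, and 592 and 724 against 197 and 70 in macrophages. The thinned microglial groups were apart, but the control values lie below 1 cell of those counted. Without the highest cell of each library, microglia kept groups that did not overlap (8.46 and 4.69 CPM in Rbpj-deleted, 0.398 and 0.523 CPM in control libraries), while macrophages overlapped (26.2 and 9.19 CPM in Rbpj-deleted, 10.5 and 68.4 CPM in control libraries).

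**Figure D2:**
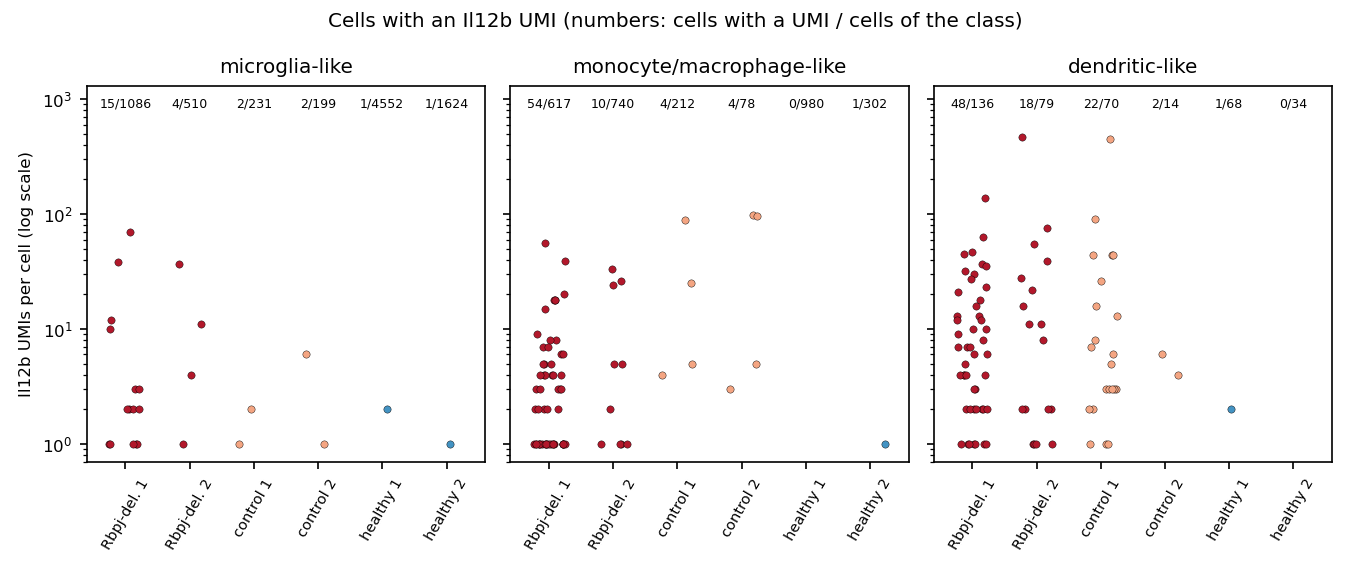
Il12b UMIs of each cell that has any (log scale), by library, for 3 cell classes; the numbers above give cells with a UMI over all cells of the class. Control macrophages show 4 cells in each library, with 3 of the 8 between 88 and 98 UMIs, while Rbpj-deleted macrophages show 54 and 10 cells, none above 56 UMIs.

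Barcodes that carried markers of more than 1 lineage had been removed, and these 3090 barcodes (18.1% of the table, 39.7% of its UMIs) held 32.7% of all Il12b UMIs. Microglia stood at 18.2 and 18.2 CPM in Rbpj-deleted and 1.13 and 3.79 CPM in control tumours. Macrophages then stood at 37.4 and 22.8 CPM in Rbpj-deleted and 28.3 and 36.7 CPM in control tumours and overlapped, with a log2 ratio of -0.11. Il12b-positive cells were also deeper and carried more mature dendritic markers. In tumour microglia 78.3% of the 23 cells with an Il12b UMI had at least 3 UMIs of the 9 markers (Ccr7, Ccl22 and others), against 32.3% of those without one, at median depths of 12159 and 6668 UMIs. In tumour macrophages these shares were 72.2% and 29.8% at median depths of 23031 and 9073. As CPM of a cell the marker sum had medians of 478 and 197 in microglia, 232 and 118 in macrophages and 6105 and 282 in dendritic cells, cells with an Il12b UMI first. Over whole libraries the marker sum in microglia was 272 and 226 CPM in Rbpj-deleted tumours, 276 and 262 CPM in control tumours, and 453 and 371 CPM in healthy brain, with 0 to 4 of the 9 markers at 0. In macrophages it was 300.2 and 175 CPM in Rbpj-deleted tumours, 248 and 246 CPM in control tumours, and 251 and 151 CPM in healthy brain, with 0 to 3 at 0. The part of dendritic RNA and of depth in the Il12b levels of microglia and macrophages was not tested.

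**Figure D3:**
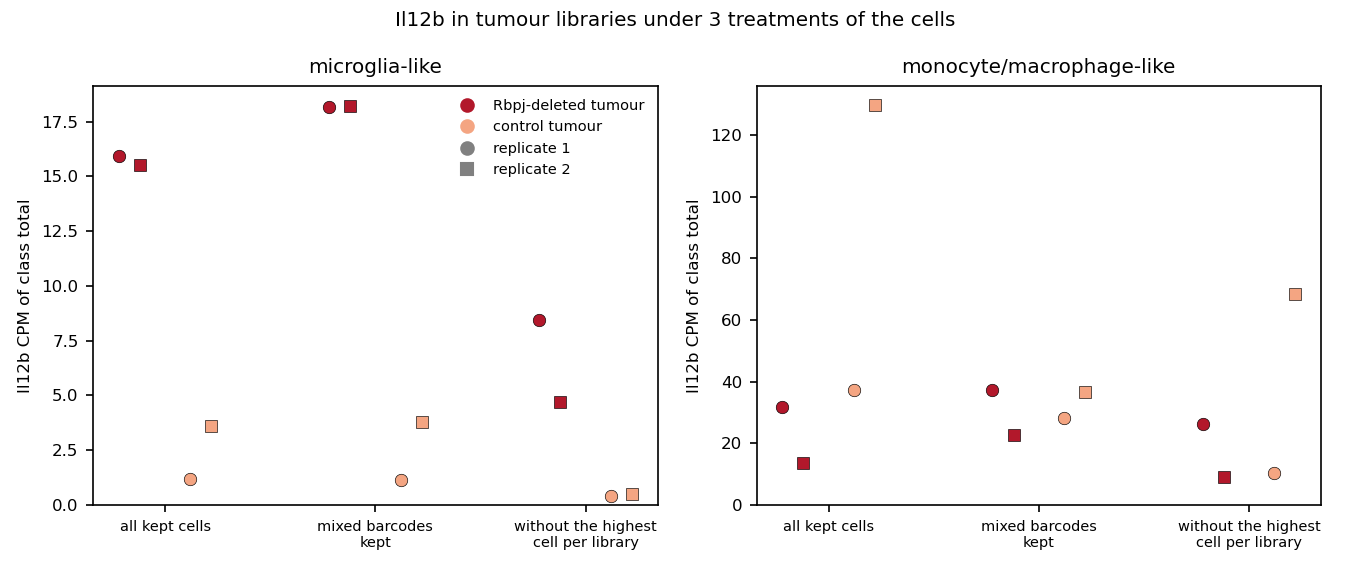
Il12b CPM in the 4 tumour libraries, for all kept cells, with mixed barcodes kept, and without the highest cell of each library (linear axes, each point 1 library). The Rbpj-deleted points lie above the control points in all 3 settings in microglia; in macrophages they lie below only for all kept cells (13.7 and 31.7 against 37.4 and 129.9 CPM).

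Of the microglial Il12b UMIs, 198 of 215 fell in the cluster led by Egr3, Csf1 and Tnf. This cluster had the lowest microglial marker score of those named microglia-like (1.09 against 1.64 to 2.36, a mean log2 excess over all clusters). Like the clusters led by Cd9 and by Ifit3, it had 0 microglial markers among its 10 leading genes. Its Rbpj-deleted libraries contributed 143 UMIs, from 12 of 731 cells, and 48 UMIs, from 2 of 39 cells. The highest cell held 70 and 37 of these. Its control libraries contributed 0 UMIs in 103 cells and 7 UMIs, from 2 of 101 cells.

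Among the cells kept, Il12a, the p35 subunit of IL-12 and IL-35, came mostly from B-like cells. B-like cells were 186 of the 13999 cells and held 72 of the 117 UMIs (61.5%), with a UMI in 24.7% of them. Their level was 44.4 and 73.2 CPM in Rbpj-deleted tumours, 53 and 85.5 CPM in control tumours and 150.3 and 84.1 CPM in healthy brain, from 3 to 24 UMIs a library, and the tumour groups overlapped. B-like cells, 6 to 64 a library, are described without a test. The removed mixed barcodes, left out here, held 43.7% of Il23a, 44.7% of Il27 and 39.7% of Ebi3 UMIs. Of Il12a they held 105 of the 222 UMIs counted before their removal (47.3%). Macrophages had 0.989 and 0.693 CPM in Rbpj-deleted tumours (10 and 5 UMIs), 2.15 and 4.48 CPM in control tumours (7 and 7 UMIs) and no UMI in healthy brain. Against the 3 counts that a group at 0 allows, the control tumour level was at least 11.1-fold and the Rbpj-deleted level at least 3.33-fold higher than in healthy macrophages. The Rbpj-deleted difference did not pass the edgeR quasi-likelihood test (adjusted p = 0.101) and the control tumour one did (adjusted p = 0.0344). In these comparisons 53.5% and 51.9% of genes were apart between groups. The control tumour call was lost in 9 of 13 other settings, among them leaving out any 1 of the 6 libraries (adjusted p up to 0.239). Between the tumour groups the macrophage log2 difference was -1.85 (edgeR adjusted p = 1). Microglia had 1 UMI in 8202 cells, and dendritic cells 4 UMIs, all in Rbpj-deleted replicate 2.

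Il23a, the p19 subunit that makes IL-23 with p40, was sparse as well, with 130 UMIs in 83 cells, 60% of them in macrophages. Macrophage levels were 3.76 and 1.66 CPM in Rbpj-deleted tumours (38 and 12 UMIs), 3.37 and 4.48 CPM in control tumours (11 and 7 UMIs) and 0.889 and 0.792 CPM in healthy brain (8 and 2 UMIs). All 4 tumour libraries were above both healthy ones, where 53.5% and 51.9% of genes were apart, yet neither difference passed (log2 1.93 ± 0.66 SE for Rbpj-deleted tumours, adjusted p = 0.154, and 2.42 ± 0.71 for control tumours, adjusted p = 0.102, edgeR). Microglia held 12 and 2 UMIs in Rbpj-deleted, 2 and 0 in control tumour and 6 and 1 in healthy libraries, and dendritic cells 2 UMIs, both in Rbpj-deleted replicate 1. No UMI was seen in T-like, NK-like or B-like cells.

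Il27, the p28 subunit of IL-27, was higher in tumours than in healthy brain in both microglia and macrophages. These are whole classes, whose clusters differed between the groups. In macrophages it reached 22.9 and 26.6 CPM in Rbpj-deleted tumours (231 and 192 UMIs) and 53.9 and 38.4 CPM in control tumours (176 and 60 UMIs), against 6.78 and 2.77 CPM in healthy brain (61 and 7 UMIs). Every tumour library was above both healthy libraries, where 53.5% and 51.9% of genes were apart for Rbpj-deleted and control tumours, and the 2 tumour groups did not overlap either, as for 30.8% of genes. The rise over healthy brain was log2 2.53 ± 0.40 (SE) in Rbpj-deleted tumours (edgeR adjusted p = 0.0135) and 3.44 ± 0.41 in control tumours (adjusted p = 0.00431). The background of calls was 4.3% of 11140 genes for Rbpj-deleted tumours and 3.97% for control tumours. Of the 4 tested members, Il27 alone was called in the first comparison, and Il27 and Il12a in the second. The control tumour call held in all 13 other settings (log2 2.74 to 4.32), and the Rbpj-deleted one was lost without Rbpj-deleted replicate 2 (adjusted p = 0.057).

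Microglia showed Il27 at 11.3 and 7.31 CPM in Rbpj-deleted tumours (106 and 25 UMIs), 21.8 and 17.0 CPM in control tumours (55 and 33 UMIs) and 5.53 and 2.63 CPM in healthy brain (159 and 28 UMIs). No 2 groups overlapped, where 56% and 50.3% of genes were apart between Rbpj-deleted or control tumours and healthy brain. The rise was log2 1.35 ± 0.39 in Rbpj-deleted tumours (adjusted p = 0.0451) and 2.30 ± 0.40 in control tumours (adjusted p = 0.00705), where 10.9% and 3.88% of 11109 genes were called by the same edgeR test. Of the members tested there, Il27 and Ebi3, Il27 was called in both. The control tumour call was lost without control replicate 1, without control replicate 2 and without the Egr3, Csf1 and Tnf cluster (lowest log2 0.93, highest adjusted p = 0.697), and the Rbpj-deleted call in 7 of 14 other settings (log2 0.94 to 2.07), among them leaving out Rbpj-deleted replicate 1, either control replicate or healthy replicate 2. Both comparisons share the healthy libraries.

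Between the tumour groups Il27 did not pass in either class. The log2 difference of Rbpj-deleted from control tumours was -0.95 ± 0.40 in microglia (edgeR adjusted p = 0.416; 0.027% of genes called) and -0.91 ± 0.36 in macrophages (adjusted p = 1; 0% of genes called), with both Rbpj-deleted libraries below both control ones in each class, where 44.9% and 30.8% of genes were apart in either direction. Both signs turned, to 0.15 and 0.35, when a split of libraries found in the data was fitted as a batch. No gene was called in macrophages by edgeR, 487 had an unadjusted p under 0.05, and DESeq2 called 18. The 3 genes called in microglia, named after their values were seen, were Fgr (higher in Rbpj-deleted tumours), Ddx3y and Serpina3f (lower). Ddx3y is a Y-linked gene, the sex of the mice is not named, and the part of sex in this call was not tested. Il27 stood higher in macrophages than in microglia in each tumour library. In healthy brain the levels were close (6.78 and 2.77 CPM in macrophages, 5.53 and 2.63 CPM in microglia). The share of all genes with this order was not computed. The difference of the Rbpj contrast between the classes was 0.13 for Il27, 0.58 for Ebi3, -1.88 for Il12a and -1.88 for Il23a (log2, macrophages minus microglia, limma), with adjusted p of 0.957, 0.861, 0.559 and 0.715. In microglia of Rbpj-deleted and control tumours Il12a had 1 and 0 UMIs and Il23a 14 and 2. The prior count of 2 added before the log therefore weighs on the values of these 2 genes, which failed the microglial edgeR filter.

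Il27 was spread over many cells, unlike Il12b: 933 cells held its 1309 UMIs, 702 of them with 1 UMI. Macrophages with a UMI made up 25.5% and 17.8% in Rbpj-deleted tumours, 39.2% and 43.6% in control tumours, against 5.82% and 2.32% in healthy brain. After thinning to 2000 UMIs a cell these were 4.92% and 4.80%, 8.83% and 6.86%, and 1.36% and 0.475% in the same order. T-like cells showed a UMI in 3 of 484 (0.620%) and NK-like and B-like cells in none. The clusters with the highest level were the macrophage ones led by Ly6i, Ms4a4c and Ass1 (34 CPM) and by Ccl8, Gbp2b and Pla2g2d (28.8 CPM) and the mature dendritic one (19.9 CPM). Over all dendritic cells Il27 had 13.5 and 18.5 CPM in Rbpj-deleted, 8.86 and 0 CPM in control tumour and 3.18 and 0 CPM in healthy libraries and passed no test (adjusted p = 0.932, 0.533 and 0.209 for Rbpj-deleted against control, control against healthy and Rbpj-deleted against healthy, edgeR), where 0.0131%, 3.59% and 2.66% of genes did. Apobr, the gene overlapping Il27, was not called in any comparison (log2 0.12 and -0.40 in microglia, 0.80 and 0.76 in macrophages, Rbpj-deleted and control tumours over healthy brain).

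Ebi3, the partner of p28 and of p35, passed no test in any class. Macrophages had 6.04 and 8.17 CPM in Rbpj-deleted tumours, 6.44 and 14.7 CPM in control tumours and 6.45 and 15.0 CPM in healthy brain, and all 3 groups overlapped. Microglia had 4.17 and 3.8 CPM in Rbpj-deleted tumours, 8.71 and 8.77 CPM in control tumours and 5.53 and 5.27 CPM in healthy brain, 3 groups that did not overlap, and the differences did not pass. There 44.9% of genes were apart between the tumour groups, 50.3% between control tumours and healthy brain and 56% between Rbpj-deleted tumours and healthy brain. The log2 difference in microglia was -1.04 ± 0.39 for Rbpj-deleted against control tumours (edgeR adjusted p = 0.365), 0.79 ± 0.36 for control tumours against healthy brain (adjusted p = 0.301) and -0.25 ± 0.35 for Rbpj-deleted tumours against healthy brain (adjusted p = 0.707). Dendritic cells had 9.74 and 11.1 CPM in Rbpj-deleted tumours, 12.1 and 12.2 CPM in control tumours and 12.7 and 8.82 CPM in healthy brain. Among lymphocytes 6 of 484 T-like cells and no NK-like or B-like cell had a UMI. The sign of its differences turned under other settings in macrophages, and in dendritic cells for Rbpj-deleted tumours against either group.

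Few cells held both subunits of a cytokine. Of 200 cells with Il12b, 7 also had Il12a (3.5%, against 0.493% of cells without Il12b) and 5 had Il23a (2.5% against 0.565%). These shares mix classes. Within dendritic cells they were 3.30% against 0% for Il12a and 0% against 0.645% for Il23a. Within macrophages they were 4.11% against 0.525% and 4.11% against 1.47%, and within microglia 0% against 0.0122% and 4% against 0.257%, Il12a first. Of 933 cells with Il27, 108 had Ebi3 (11.6%, against 4.09% of the rest); within macrophages the shares were 13.2% and 7.12%, and within microglia 6.38% and 3.46%. Deeper cells hold more of every gene, and its part in these shares was not tested. None of the 46 B-like cells with Il12a had an Ebi3 UMI.

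Genes of receptors, targets and regulators were read from the same fits. Of the 5 receptor genes 3 could be tested in microglia and in macrophages, and Il12rb1, the chain shared by the IL-12 and IL-23 receptors, was the 1 called. In macrophages it had 9.40 and 17.7 CPM in Rbpj-deleted tumours, 24.5 and 14.1 CPM in control tumours and 1.11 and 0.792 CPM in healthy brain, a rise of log2 4.01 ± 0.57 (adjusted p = 0.00844) and 4.55 ± 0.58 (adjusted p = 0.00626). In microglia its pooled counts were 44 UMIs in Rbpj-deleted tumours, 39 in control tumours and 3 in healthy brain, which gives ratios of 45.3 (95% counting interval 14.5 to 228) and 115 (36.5 to 580), both called (adjusted p = 7.89e-04 and 2.76e-04). Il27ra, the IL-27 receptor chain, and Il6st, its partner gp130, did not pass in either class. The median log2 difference of the tested receptors was 1.33 and 0.29 in microglia and 1.47 and 1.33 in macrophages, Rbpj-deleted and control tumours over healthy brain; in dendritic cells Il6st alone was tested and not called. In microglia the sum of 12 T-cell markers was 41.4 and 40.1 CPM in Rbpj-deleted tumours, 26.9 and 34.6 CPM in control tumours and 13.3 and 12 CPM in healthy brain, with 0 to 2 of the markers at 0. In macrophages it was 140 and 44.1 CPM in Rbpj-deleted tumours, 192 and 122 CPM in control tumours and 69.2 and 61.4 CPM in healthy brain, with at most 1 at 0. The part of T-cell RNA in Il12rb1 and in the targets below was not tested.

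Background shares of genes called higher, Rbpj-deleted and control tumours over healthy brain, were 7.59% and 3.38% in microglia, 2.85% and 2.94% in macrophages and 2.04% and 2.45% in dendritic cells, and of genes called lower 3.31% and 0.495%, 1.45% and 1.03%, and 0.616% and 1.14% in the same order of classes. Of 14 regulators of Il12b and Il23a transcription, 3 and 4 rose in microglia and 4 and 5 in macrophages (Rbpj-deleted and control tumours over healthy brain), 1 and 2 of 13 in dendritic cells, and none fell. Their median log2 differences were 0.34 and 0.36 in microglia, 0.55 and 0.67 in macrophages and 0.52 and 0.39 in dendritic cells, beside medians of all genes between -0.04 and -0.01. Irf1, an interferon-induced activator of Il12 and Il27 genes, rose by log2 2.65 ± 0.21 and 2.82 ± 0.22 in microglia, 2.60 ± 0.36 and 2.81 ± 0.37 in macrophages and 3.5 ± 0.55 and 3.38 ± 0.56 in dendritic cells (edgeR adjusted p at most 0.00755). Tlr2, a receptor for bacterial lipoproteins, rose by 2.21 ± 0.23 and 1.48 ± 0.23 in microglia and 1.98 ± 0.29 and 1.65 ± 0.29 in macrophages (adjusted p at most 0.0188). Cd40, through which T cells trigger p40, had 73.3 and 128 CPM in macrophages of Rbpj-deleted tumours, 134 and 78.1 CPM in control tumours and 10.0 and 13.9 CPM in healthy brain, a rise of 3.42 ± 0.45 and 3.5 ± 0.45 (adjusted p = 0.00806 and 0.00808). In microglia it was called too (adjusted p = 0.0037 and 0.0107), at pooled ratios of 174 (58.5 to 851) and 138 (44.5 to 694) against 3 healthy UMIs, and the control difference turned sign without the Egr3, Csf1 and Tnf cluster. Both microglial calls of Cd40 were lost without either healthy replicate and under the library split. Without 1 library at a time the log2 difference was 7.08 to 7.6 for Rbpj-deleted and 5.23 to 7.93 for control tumours. Irf8, the dendritic lineage factor, was called in control tumours, by 1.25 ± 0.28 in microglia, 1.69 ± 0.30 in macrophages and 2.67 ± 0.40 in dendritic cells (adjusted p = 0.0339, 0.022 and 0.00356). In Rbpj-deleted tumours it was not called, and the difference between the tumour groups did not pass either (dendritic cells, -1.33 ± 0.36, adjusted p = 0.424). Beside it, the sum of 7 type 1 dendritic markers in dendritic cells was 325 and 280 CPM in Rbpj-deleted tumours, 865 and 619 CPM in control tumours and 184 and 179 CPM in healthy brain, and its part in Irf8 was not tested. Batf3, a factor of type 1 dendritic cells that completes the count, rose in macrophages by 1.62 ± 0.36 and 1.96 ± 0.37 (adjusted p = 0.0475 and 0.0282). Leaving out healthy replicate 1, which held 980 of the 1282 healthy macrophages, ended the macrophage calls of Il12rb1, Cd40, Tlr2, Batf3 and Ifng in both comparisons, of Irf1 in Rbpj-deleted and of Irf8 in control tumours. Irf8 in control macrophages was also lost without control replicate 1, and Tlr2 there without control replicate 1 or healthy replicate 2. Batf3 was lost in 7 and 4 of 13 settings. Under the library split, Rbpj-deleted macrophages also lost the calls of Il12rb1, Irf1 and Tlr2, and Rbpj-deleted dendritic cells that of Irf1. Control macrophages lost the call of Tlr2 under the split and with the replicate block, and that of Cd40 with mixed barcodes kept. The microglial call of Irf8 was lost in 7 of 14 other settings and that of Tlr2 in control tumours without control replicate 2 and without the Egr3, Csf1 and Tnf cluster (lowest log2 0.82, adjusted p up to 0.168). Between the tumour groups no receptor, target or regulator gene was called in any class.

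**Figure D4:**
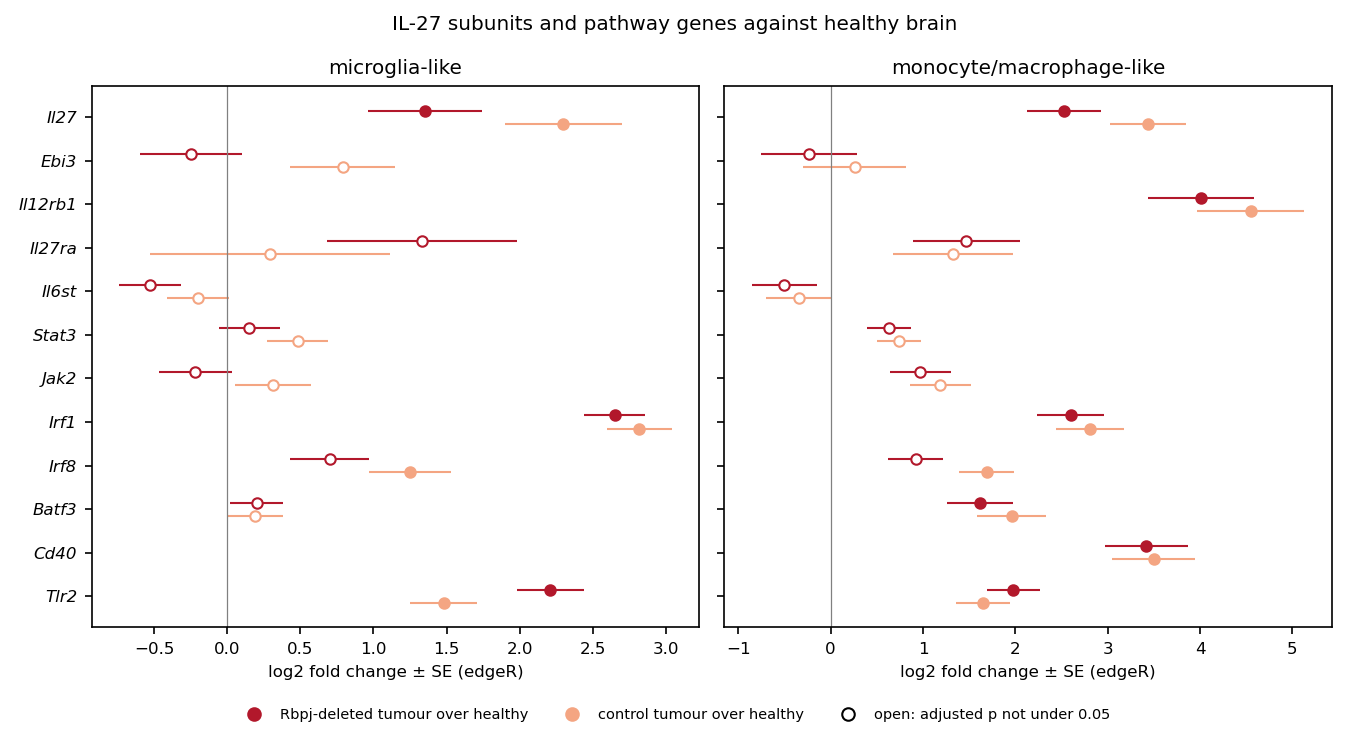
Log2 fold change with its standard error (edgeR, 2 libraries a group) of Il27, Ebi3 and pathway genes in tumours over healthy brain, filled where the adjusted p was under 0.05; genes with 3 or fewer healthy UMIs are not drawn. Il27 and Irf1 are filled for both tumour groups in both classes (Il27 in macrophages at 2.53 and 3.44), while Ebi3 lies between -0.25 and 0.79 and is open throughout.

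Targets of the cytokines in lymphocytes were looked at in 10 genes. Ifng, the product that IL-12 drives in T and NK cells, was called in microglia and macrophages and not in dendritic cells. Microglia had 3.53 and 2.05 CPM in Rbpj-deleted tumours, 2.38 and 3.61 CPM in control tumours and 0.278 and 0.470 CPM in healthy brain. The rise was log2 3.19 ± 0.66 and 3.13 ± 0.75 (edgeR adjusted p = 0.00944 and 0.0379). These calls were lost in 3 and 5 of 13 other settings, in both without Rbpj-deleted replicate 1 or healthy replicate 1. In macrophages Ifng was called against 2 healthy UMIs (edgeR adjusted p = 0.00735 and 0.00979) at pooled ratios of 54.5 (14.9 to 454) and 47.8 (12.4 to 408). Both of these calls were lost without healthy replicate 1, and the Rbpj-deleted one also under the library split. The sum of 10 NK-cell markers in macrophages was 27.8 and 14.8 CPM in Rbpj-deleted tumours, 34.9 and 10.2 CPM in control tumours and 8.11 and 3.56 CPM in healthy brain, with 1 to 7 at 0, and its part in Ifng and Gzmb was not tested. Of targets tested, 2 of 4 and 1 of 4 rose in microglia and 2 of 7 and 1 of 7 in macrophages of Rbpj-deleted and control tumours (Ifng, and in Rbpj-deleted tumours also Gzmb, the gene of the killer-cell protease granzyme B), and none fell, beside the T-cell marker sums given above. Gzmb in Rbpj-deleted tumours differed by log2 3.57 ± 0.77 in microglia (edgeR adjusted p = 0.0114), a call lost without either healthy library and under the library split. In macrophages it differed by a pooled ratio of 17.5 (5.78 to 86.7, edgeR adjusted p = 0.0194). The macrophage call of Gzmb was lost in 5 of 13 other settings, namely without either Rbpj-deleted library, without healthy replicate 1, with mixed barcodes kept and under the library split (adjusted p up to 0.215). The list medians were 2.71 and 2.57 in microglia and 2.27 and 2.51 in macrophages; in dendritic cells 1 target was tested and not called. In T-like and NK-like cells themselves only the tumour groups held enough cells, and no receptor, target or regulator gene was called between them, where 0.14% of 7165 and 0.43% of 3955 genes were. Il27ra differed by log2 0.93 ± 0.27 in T-like cells (adjusted p = 0.458) and 1.39 ± 0.41 in NK-like cells (adjusted p = 0.238), and Ifng in NK-like cells by 1.15 ± 0.32 (adjusted p = 0.197), Rbpj-deleted over control tumours by edgeR.

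The genes most like each member were taken by Pearson correlation of log2(CPM + 1) over 30 sums of at least 20 cells, 1 per library and class, among 8846 genes. The sums share libraries and depth, and no p is given. Il12a was most like the B-cell genes Pou2af1 (r = 0.914), Vpreb3 and Pax5. Il12b was most like Bcl2l14 (r = 0.864), Pgap2 and Clec9a, the last a receptor of type 1 dendritic cells. Il23a was most like Cfb (r = 0.805), a complement factor, and Cstb. Il27 was most like Gsdmd (r = 0.888), the pore-forming gasdermin, Ly6i and Batf2. Ebi3 was most like Csf2rb2 (r = 0.904) and Tnfrsf11a, receptor genes of myeloid cells.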

How the data were processed

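CD45+ single cells were profiled in 6 libraries by 10x 3' v3 chemistry. The deposited table holds UMI counts per gene and cell, made by the authors with kallisto 0.46.0 and bustools 0.39.3 on mm10, per the submitters' processing notes. It held 17362 barcodes, each with at least 1000 UMIs, and library totals of 5992913 to 41012091 UMIs were left after filtering. Barcodes under 500 genes or over 10% mitochondrial counts (17), copies of a barcode sequence that was over 10 times deeper in another library (256; 119 sequences occurred in more than 1 library) and barcodes with markers of more than 1 lineage (3090, at least 3 counts and 5% of the highest cluster level) were removed. Doublets were treated through this last filter alone, which used no dendritic markers, and no doublet caller was run. With scanpy 1.11.5, 1997 variable genes, 30 principal components and 20 neighbours, Leiden clustering at resolution 1 gave 25 clusters. Of these, 5 (1350 cells) stayed unnamed. The naming and mixed-barcode thresholds were set after seeing clusters, and the members and gene lists were chosen with earlier results of these data known. Names and shares may differ from the study's own.

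Counts were summed per library and class. The main test was edgeR 4.0.16 (quasi-likelihood, filterByExpr, TMM) in R 4.3.3, with all 3 groups in 1 fit (3 residual degrees of freedom; 2 for T-like and NK-like cells, tumour libraries only), Benjamini-Hochberg adjustment over all genes tested and a threshold of 0.05. Il12a and Il23a in microglia and dendritic cells, and all tested members in T-like and NK-like cells, failed the filter on low counts. The difference between classes used limma 3.58.1 on log2 CPM with a prior count of 2. The library split, seen in earlier work on these data, sets healthy replicate 1 with the control and healthy replicate 2 with the Rbpj-deleted libraries, so split and tumour group can be told apart through the healthy libraries alone. Where leaving out a library left 1 in a group, that library was assumed to vary like the other groups. DESeq2 1.42.0 was an alternative, and the fit was tested on simulated data. Up to 3 genes of smallest p were named per list, and other names are marked. The signalling list is not reported here. Intervals (95%, exact Poisson or binomial) and floors of 3 counts cover counting error only. CPM refers to the total of a class in a library.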

Additional observations from a re-analysis of the deposited data

Results flagged for a closer look

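The Il12b values of the tumour groups differed in sign between 2 classes of cells. The log2 ratio of mean CPM, Rbpj-deleted over control tumours, was 2.71 in microglia, with both Rbpj-deleted libraries above both control ones, and -1.88 in macrophages, with both below. Of all genes, 44.9% in microglia and 30.8% in macrophages were apart in this way, in either direction. The difference between the classes was not tested, since the gene was chosen for it. In macrophages 2 cells held 92.6% of the Il12b UMIs of 1 control library and 2 cells 96.1% of those of the other. The macrophage groups overlapped without the highest cell of each library and with mixed barcodes kept (log2 ratio -0.11), and by share of cells the macrophage log2 ratio was 0.526. The microglial groups stayed apart in the first 2 settings but overlapped by share of cells (log2 ratio 0.211). In microglia 2 cells held 72.5% and 90.6% of the UMIs of the Rbpj-deleted libraries, and the control libraries had 3 and 7 UMIs.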

How the results depend on the processing

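Of the alternatives, the one without the Egr3, Csf1 and Tnf cluster and, for Il12b levels, the share of cells, the highest cell left out and each library left out were chosen after seeing the data. Counts of called genes are given for Rbpj-deleted against control tumours, control tumours against healthy brain and Rbpj-deleted tumours against healthy brain, in that order. The main counts were 3, 431 and 1211 in microglia, 0, 442 and 479 in macrophages, 1, 274 and 203 in dendritic cells, and, between tumour groups, 10 in T-like and 17 in NK-like cells. With no filter on low counts they were 335, 831 and 1863 in microglia, 69, 1332 and 1320 in macrophages, 71, 601 and 470 in dendritic cells, 195 in T-like and 72 in NK-like cells. DESeq2 called 101 between the tumour groups in microglia, 18, 857 and 857 in macrophages, 4 in dendritic and 40 in T-like cells. With the replicate block, between tumour groups 9 genes were called in microglia, 2 in dendritic and 9 in NK-like cells, and 273 and 315 against healthy brain in macrophages. The labels do not state whether same-numbered libraries belong together. Deviations of same-numbered libraries correlated at -0.4 to 0.272, and a batch shared by them was not tested. With the library split as a batch there were 23 between the tumour groups in microglia, 246 and 155 against healthy brain in macrophages, and 124 for Rbpj-deleted dendritic cells against healthy brain. Mixed barcodes kept gave 5 between the tumour groups in microglia and 777 for control macrophages against healthy brain. Without the Egr3, Csf1 and Tnf cluster microglia gave 1, 44 and 745. Leaving out 1 library at a time gave 0 to 312, 154 to 649 and 785 to 1641 in microglia, 0 to 20, 130 to 680 and 135 to 730 in macrophages, 1 to 28, 175 to 557 and 87 to 412 in dendritic cells, 19 to 201 in T-like and 63 to 81 in NK-like cells. The class difference of the Rbpj contrast called 0 of 11761 genes by limma (858 at an unadjusted p under 0.05), and 0 without any 1 library.

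Scaling by library size alone shifted the median log2 change of all genes to -0.125 and -0.212 in microglia, -0.318 and -0.309 in macrophages and -0.153 and -0.155 in dendritic cells (control, then Rbpj-deleted tumours, over healthy brain). Higher and lower calls were then 314 and 90 (main 376 and 55) and 645 and 783 (843 and 368) in microglia, 244 and 220 (327 and 115) and 219 and 241 (317 and 162) in macrophages, and 147 and 94 (187 and 87) for control dendritic cells.

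The Il12b log2 ratio was 0.211 in microglia by share of cells and 1.16 after thinning, and -0.11 in macrophages with mixed barcodes kept and 0.526 by share of cells. Leaving out 1 library gave 2.12 to 3.73 in microglia, -2.61 to -0.721 in macrophages and -0.00139 to 4.35 in dendritic cells. Of gene values under other settings, 686 kept direction and side of the threshold, 101 lost the call, 4 gained it and 19 turned sign. Cd40 in control microglia over healthy brain turned to -2.53 without the Egr3, Csf1 and Tnf cluster. Between tumour groups, Il27 turned to 0.15 in microglia and 0.35 in macrophages under the library split, and to 0.14 in microglia without that cluster, Il23a in macrophages to 0.42 with mixed barcodes kept, and Ebi3 to 0.20 in dendritic cells under the split and 0.11 in macrophages without control replicate 2. Ebi3 in Rbpj-deleted dendritic cells over healthy brain turned to -0.12 (library size), -0.28 (mixed barcodes kept), -0.09 (without Rbpj-deleted replicate 2) and -0.13 (without healthy replicate 2). In macrophages it turned to 0.01 (without Rbpj-deleted replicate 1) and 0.45 (without healthy replicate 2) for Rbpj-deleted tumours, and to -0.02 (library size), -0.22 (mixed barcodes kept), -0.33 (without control replicate 2) and -0.33 (without healthy replicate 1) for control tumours. Without 1 library at a time Ebi3 in macrophages ranged from -0.82 to 0.45 for Rbpj-deleted tumours over healthy brain, from -0.33 to 0.94 for control tumours over healthy brain and from -0.99 to 0.11 between the tumour groups. Il27 in control dendritic cells turned to -3.96 without control replicate 1 (to 5.68 without others), and Ifng in T-like cells between tumour groups to 0.29 without control replicate 2 (lowest -0.64). The causes were not tested. Il12a rested on 117 UMIs and Il23a on 130, and 10 cells held 50.5% of those of Il12b.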
